A study of Mus musculus with 11 samples.

Results

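Whole tibialis anterior muscle was compared between mice with and without a stabilised beta-catenin in their mesenchymal progenitors. The comparison took the 5 libraries that the labels call whole muscle lysate, of 11 libraries in the series, and every gene of the deposited count table was followed. The other 6 libraries are sorted progenitors and were not used here. All 5 mice were sampled in the resting state on day 56 after tamoxifen, and the deposited sample table gives all of them as males.

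Per the study's design text and the labels, all animals carried the tamoxifen-inducible recombinase Hic1-CreERT2 and a tdTomato reporter, and were given tamoxifen. The WT group (animals 73A5 and 73A7) had only wild-type beta-catenin alleles. The WT/flox group (animals 71B3, 71B4 and 71B5, labelled WTlFlox) had 1 beta-catenin allele with exon 3 between loxP sites. The Hic1 promoter sets which cells recombine, in muscle and in any other tissue where it is active, and that is a limit of the model. Animal numbers begin with 73A in WT and with 71B in WT/flox, and the genotype and any difference between those number series cannot be told apart. The comparison asks which transcripts of the whole muscle differ, in a series whose title is about muscle mass loss.

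Beta-catenin carries the canonical Wnt signal. Without Wnt it is phosphorylated at residues encoded by exon 3 and degraded, and a protein that lacks them escapes degradation and activates target genes together with TCF/LEF factors. Fibro-adipogenic progenitors are interstitial mesenchymal cells that lie between muscle fibres, make much of the matrix and send secreted signals to fibres, muscle stem cells and motor nerve endings. Most RNA in a muscle lysate comes from the fibres themselves, so the table mixes transcripts of the recombined cells with those of many cells that did not recombine.

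Libraries held 16892158 to 19449227 counts, and levels are given as TMM-scaled CPM, the count per fixed library size, with WT in the order 73A5, 73A7 and WT/flox in the order 71B3, 71B4 and 71B5. The tissue label was borne out by its markers. Transcripts of the myofibre list took 17.8 to 24.2% of counts, and the gene with the highest count was Myh4 in both WT and Atp2a1 in all 3 WT/flox libraries. By the number of genes far apart, the WT animals differed most: 53 tested genes differed at least 4-fold between 73A5 and 73A7, against 4 to 16 within WT/flox. By the chi-square of their counts per degree of freedom, the WT animals (44.4) and 71B3 and 71B5 (48.2) were similarly far apart. Animal 73A7 was at the high end of the first principal component (46.9% of the variance, score 43.8) and 71B5 at the low end (-29.7), with 73A5 (-5.85), 71B3 (3.76) and 71B4 (-12.0) between them, so that this component did not separate the genotypes. On the second component (33.5%) WT lay at -38.8 and -0.118 and WT/flox at 20.7, 13.5 and 4.63, without overlap. By correlation of log2 CPM, 73A5 was nearer to each WT/flox library (0.9753 to 0.9804) than to 73A7 (0.9721).

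Of 24421 symbols, 12654 had enough counts to be tested, and 92 of them (0.727%) were called at a Benjamini-Hochberg adjusted p under 0.05 by edgeR's quasi-likelihood test. Counts of called genes are edgeR's unless another tool is named. DESeq2 called 265 of 12437 genes, 158 higher and 107 lower, and its counts in the lists are to be read beside these. There were 65 genes higher in WT/flox (0.514%) and 27 lower (0.213%). The called members of each list are to be read beside these shares. Of the called genes, 87 differed at least 2-fold and 25 at least 4-fold, 17 upward and 8 downward. For all 92 the highest library of one genotype lay below the lowest of the other. Over all tested genes the share without overlap was 25.3%, with 12.4% higher and 12.9% lower in WT/flox, and an unadjusted p under 0.05 was reached by 9.69%. The median log2 fold change of all tested genes was 0.003, with quartiles of -0.163 and 0.177. Scaling by total counts alone moved that median to 0.126, and the lists described here are to be read relative to it. Calls were sensitive to single animals: without 71B5 edgeR called 0 genes (smallest adjusted p 0.0532, 1023 genes at an unadjusted p under 0.05), without 71B4 25, without 73A5 239 and without 73A7 207.

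**Figure D1:**
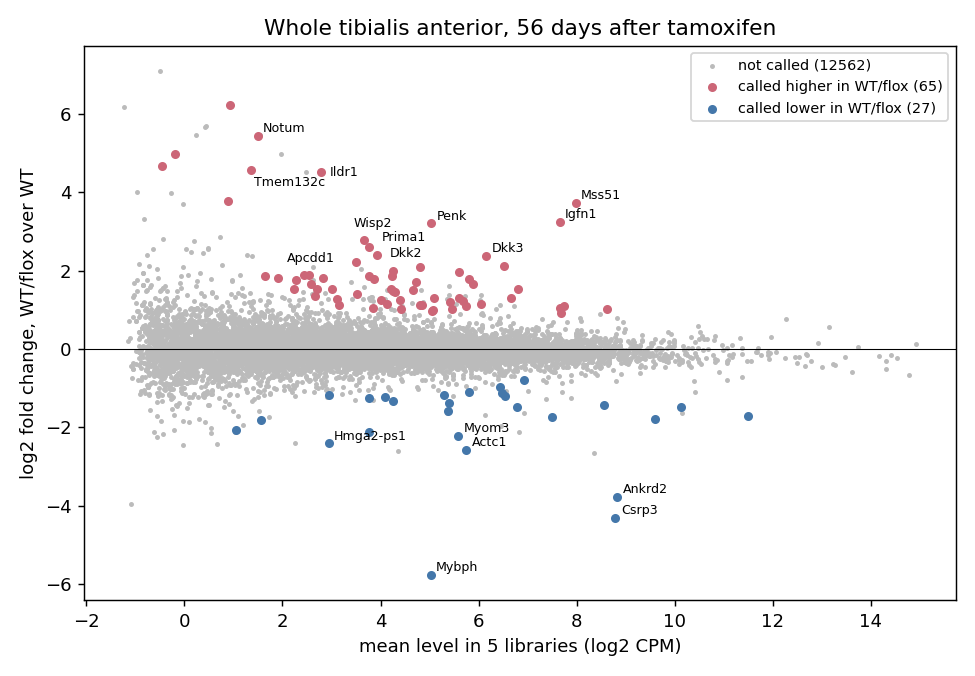
Log2 fold change of WT/flox over WT (vertical axis) against the mean level in 5 libraries in log2 CPM (horizontal axis) for the 12654 tested genes, 1 point per gene. The 65 genes called higher are red and the 27 called lower are blue; Mybph, Csrp3 and Ankrd2 lie farthest down and Mss51 and Igfn1 combine a large rise with a high level.

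The called genes fell into a few groups by known role. All 8 called genes of Wnt signalling and all 8 of TGF-beta, BMP and activin signalling were higher in WT/flox, as were 3 of the CCN matricellular family, 6 growth factors, neuropeptides and their receptors, and 3 of complement and chemokines. Of 12 matrix, matrix enzyme and adhesion genes 9 were higher and 3 lower. Of 10 genes of the sarcomere, the Z-disc and the stretch response, 9 were lower and 1 higher. The other called genes were 4 transcription factors, 8 enzymes and carriers of metabolism, and 30 in no group. These groups were written after the called genes were seen and describe them only.

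**Figure D2:**
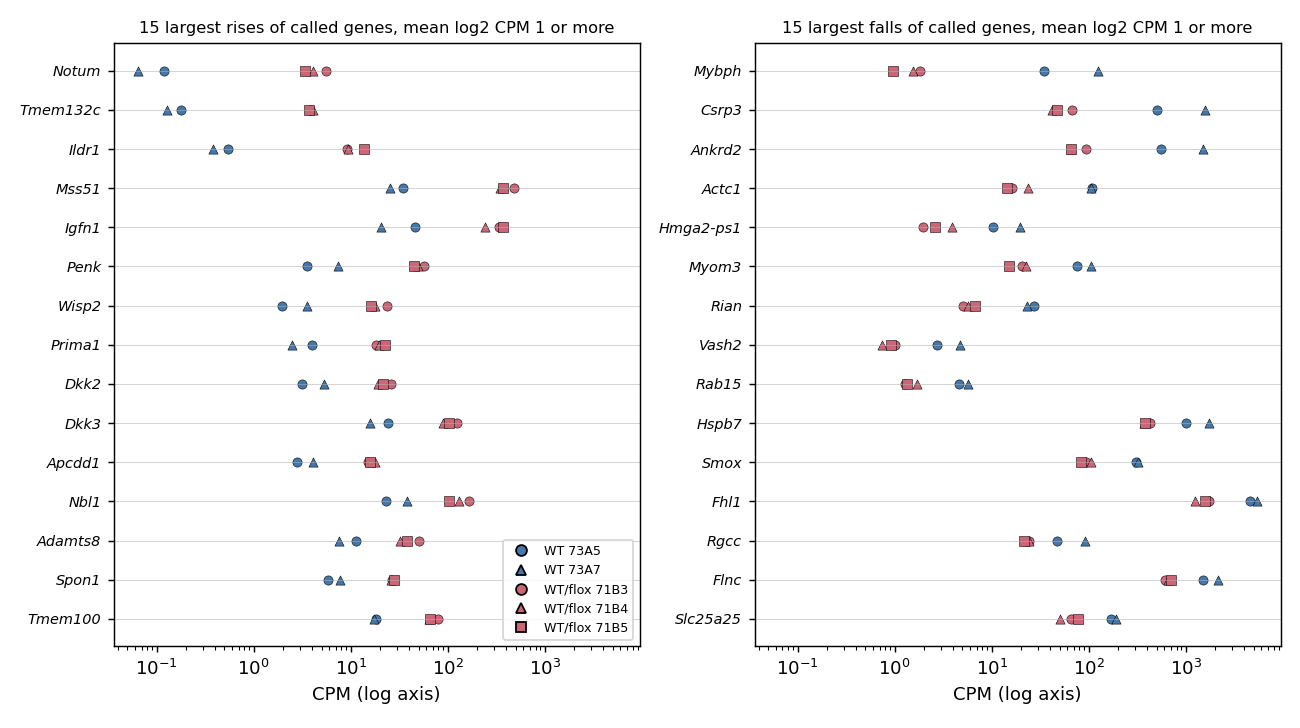
Level in each library (CPM, log axis) of the 15 called genes with the largest rise (left) and the 15 with the largest fall (right) among those with a mean log2 CPM of 1 or more, WT in blue and WT/flox in red, 1 symbol per animal. In each of the 30 genes the WT and WT/flox symbols lie apart, and for Mybph, Csrp3 and Ankrd2 the WT animals also lie apart from each other.

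The floxed gene and its driver were measured first. Ctnnb1, which encodes beta-catenin (GRCm38 chr9:120929216-120960507), stood at 324 and 271 CPM in WT and at 283, 303 and 304 CPM in WT/flox, and the genotypes overlapped (log2 fold change -0.00, SE 0.15, edgeR adjusted p = 0.997). Since reads of all exons were summed, this level says nothing of whether exon 3 was removed. Hic1, a transcriptional repressor of quiescent mesenchymal cells, was at 5.39 and 4.998 CPM in WT and at 6.75, 6.35 and 5.46 CPM in WT/flox (0.25, SE 0.19, edgeR adjusted p = 0.780).

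The surroundings of the floxed allele were examined because alleles linked to it can differ between the genotypes. Within 10 Mb of Ctnnb1 on chromosome 9, 2 of 86 tested genes were called, a larger share than the 0.727% of all tested genes. They were Dlec1 (chr9:119102478-119148246) and Cdcp1 (chr9:123170824-123216038), 1.78 and 2.21 Mb away. Both went from 1 count over the WT libraries to 70 (Dlec1) and 56 (Cdcp1) over the WT/flox libraries. The ratio of WT/flox to WT was 38.6 for Dlec1 (exact 95% counting interval 6.70 to 1550) and 30.9 for Cdcp1 (5.32 to 1240). On all of chromosome 9, 5 of 711 tested genes were called (0.703%), a share close to the 0.727% of all genes. Dlec1 and Cdcp1 are low in every library, and whether their position has a part in their difference was not tested.

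Wnt antagonists and feedback inhibitors rose. Of 14 tested members of the list of Wnt target genes, 5 were higher (0.514% over all genes) and 0 lower. Their median log2 fold change was 0.74 (0.003 over all genes), and 7 of the 14 did not overlap, all higher (12.4% over all genes). This list, like all lists here, was chosen with earlier results of these data known, so the shares are no test. Notum, a secreted enzyme that removes the lipid of Wnt ligands (chr11:120653788-120661175), was counted 3 times in WT and 252 times in WT/flox (ratio 46.3, exact 95% counting interval from 15.7 to 226), at 5.53, 4.11 and 3.35 CPM in 71B3, 71B4 and 71B5. In whole tissue, more cells that use a gene and more of its RNA per cell cannot be told apart, here and for the genes that follow. Nkd1, which binds Dishevelled and dampens the pathway, stood at 2.09 and 2.95 CPM in WT and at 8.59, 8.32 and 7.18 CPM in WT/flox (1.67, SE 0.23, edgeR adjusted p = 0.0233). Its paralog Nkd2 went from 1.32 and 0.961 CPM to 3.32, 4.80 and 4.35 CPM. Each WT/flox library was above each WT library for both.

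Secreted and membrane antagonists rose further. Dkk2, a ligand of the LRP co-receptors, was at 3.17 and 5.25 CPM in WT and at 26.2, 18.9 and 21.3 CPM in WT/flox (2.40, SE 0.26, edgeR adjusted p = 0.0100). Apcdd1, a membrane-bound Wnt inhibitor, was at 2.81 and 4.10 CPM in WT and at 14.9, 17.7 and 15.9 CPM in WT/flox (2.23, SE 0.22). Dkk3, a divergent secreted member of the Dickkopf family, was at 24.4 and 15.6 CPM in WT and 124, 88.4 and 102 CPM in WT/flox (2.39, SE 0.25, edgeR adjusted p = 0.00863). The lowest WT/flox library exceeded the higher WT library by more than 3-fold for all of Dkk2, Apcdd1 and Dkk3. Sfrp1, a soluble Frizzled-related protein, rose by 1.54 (SE 0.21) and the receptor Fzd1 by 1.12 (SE 0.17) on the log2 scale.

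The rest of the Wnt machinery gave few calls. Among 37 tested ligands, receptors and modulators edgeR called 3 higher and 0 lower (Dkk3, Sfrp1 and Fzd1) and DESeq2 5 higher and 1 lower. At an unadjusted p under 0.05, 10 were higher and 3 lower (9.69% over all genes in either direction). The median was 0.11, and it was -0.02 without 73A7 and 0.30 without 73A5. Of 23 intracellular components 0 were called by edgeR and 0 by DESeq2, with 1 lower at an unadjusted p under 0.05 (median 0.03). Axin2, the feedback scaffold often read as a reporter of the pathway, was at 11.2 and 9.23 CPM in WT and at 14.1, 17.7 and 21.3 CPM in WT/flox without overlap, and it did not pass (0.80, SE 0.21, edgeR adjusted p = 0.216). Sfrp2 (2.41, SE 0.58), Sfrp4 (2.05, SE 0.49), Wnt10b (2.13, SE 0.51) and Frzb (-1.05, SE 0.18) were picked with their values in view, and none passed (edgeR adjusted p = 0.160, 0.149, 0.151 and 0.0593). Ccnd1 and Myc, targets of the pathway in many cell types, had log2 fold changes of 0.30 and -0.01. Axin2, Ccnd1 and Myc were also picked with their values in view. Sp5 and Dkk1 had no count in any of the 5 libraries and Lef1 was too low to be tested.

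**Figure D3:**
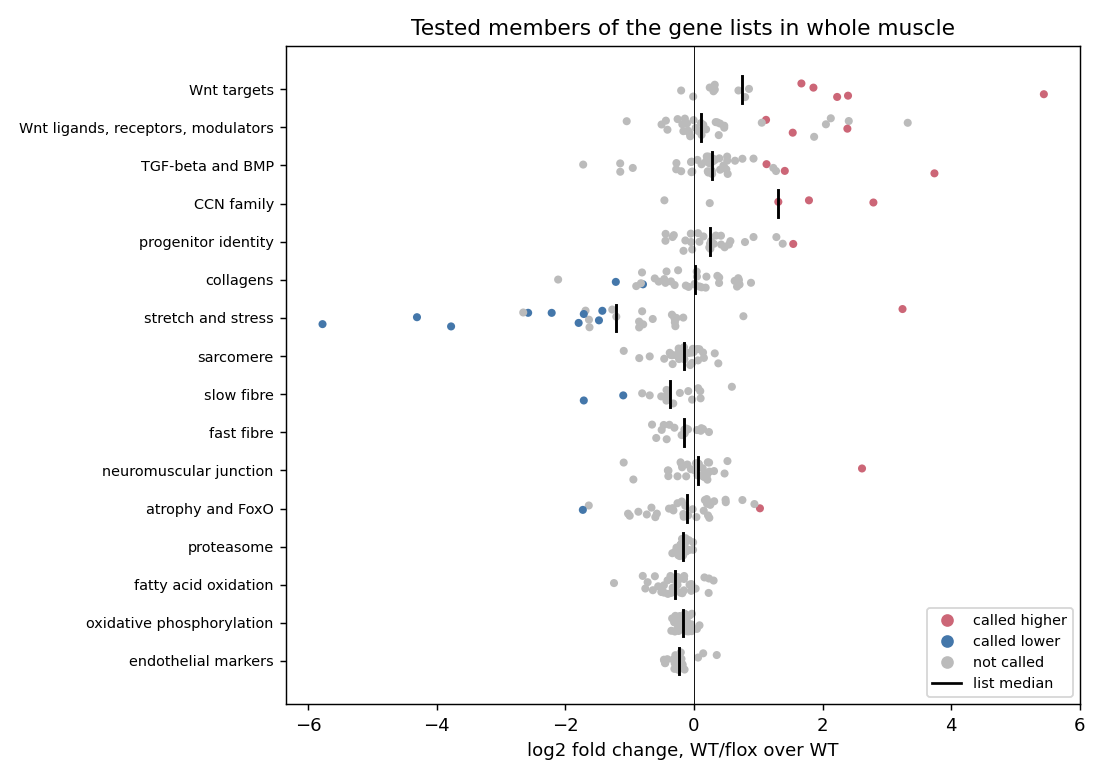
Log2 fold change of WT/flox over WT for each tested member of 16 gene lists, 1 point per gene, with red for called higher, blue for called lower and grey for not called, and a black bar at the list's median. The stretch and stress list has its median at -1.21 and the Wnt target list at 0.74. The 30 proteasome genes lie between -0.34 and -0.01, and the sarcomere genes between -1.09 and 0.38.

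Genes of TGF-beta, BMP and activin signalling also moved upward. Mss51, a skeletal muscle gene whose product acts in mitochondrial metabolism and whose transcript is lowered when myostatin is inhibited (chr14:20482867-20496901), was the largest of these rises. It stood at 34.7 and 25.2 CPM in WT and at 486, 345 and 371 CPM in WT/flox (3.74, SE 0.24, edgeR adjusted p = 0.00546). All 3 WT/flox animals lay about an order of magnitude above both WT animals. Nbl1, a secreted BMP antagonist of the DAN family, was at 22.9 and 37.9 CPM in WT and at 165, 129 and 103 CPM in WT/flox (2.13, SE 0.28, edgeR adjusted p = 0.0214). Nog, which encodes the BMP antagonist noggin, was at 5.87 and 5.51 CPM in WT and at 17.9, 16.2 and 11.4 CPM in WT/flox (1.41, SE 0.23).

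Intracellular inhibitors of the pathway and an activin subunit were part of the same group. The inhibitory Smad7 was at 18.6 and 14.8 CPM in WT and at 37.5, 30.9 and 41.1 CPM in WT/flox (1.13, SE 0.18, edgeR adjusted p = 0.0443). Pmepa1 and Ldlrad4, related membrane proteins that hold back receptor-activated Smads, rose by 1.66 (SE 0.25) and 1.55 (SE 0.24) on the log2 scale. Inhba, which encodes the subunit of activin A, a ligand that reduces muscle mass, was low but tight within each genotype, at 1.38 and 1.47 CPM in WT and 4.95, 4.91 and 5.12 CPM in WT/flox (1.81, SE 0.22, edgeR adjusted p = 0.0156). The type I receptor Acvr1 rose by 0.98 (SE 0.14).

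The wider lists held few calls. In the TGF-beta and BMP list edgeR called 3 of 41 tested genes higher and 0 lower, and DESeq2 6 higher and 2 lower. Without 73A5 edgeR called 4 higher and 2 lower and without 73A7 2 higher and 1 lower. The list had a median of 0.28, and 19 of the 41 did not overlap on the higher side and 6 on the lower side (12.4% and 12.9% over all genes). In the activin and myostatin list Inhba was the 1 gene of 16 that edgeR called, DESeq2 called 3 higher, 9 of 16 had a log2 fold change above 0, and the median was 0.15. Myostatin itself, Mstn, was at 35.1 and 16.02 CPM in WT and at 18.2, 22.9 and 23.3 CPM in WT/flox, and the genotypes overlapped (-0.25, SE 0.30, edgeR adjusted p = 0.876). The activin-binding protein gene Fst was at 4.37 and 3.40 CPM in WT and at 3.06, 3.47 and 4.69 CPM in WT/flox (-0.05, SE 0.26). Skil, a feedback repressor of Smads (1.28, SE 0.26), and Bmp4 (0.93, SE 0.19) did not pass, both at an edgeR adjusted p of 0.0970. Mstn, Fst, Skil and Bmp4 were picked with their values in view.

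Of the CCN family, secreted proteins that bind integrins and growth factors in the matrix, 3 of 5 tested members rose (0.514% over all genes) and 0 fell. Nov (Ccn3) was at 5.81 and 5.77 CPM in WT and at 19.8, 19.1 and 21.1 CPM in WT/flox (1.79, SE 0.15, edgeR adjusted p = 0.00546). Wisp2 (Ccn5), a member often regulated by Wnt, was at 1.98 and 3.52 CPM in WT and at 23.4, 17.6 and 15.98 CPM in WT/flox (2.79, SE 0.30). Cyr61 (Ccn1) was at 47.9 and 59.7 CPM in WT and at 141, 135 and 124 CPM in WT/flox (1.31, SE 0.16). The genotypes lay apart for all 3, with a spread within WT/flox of less than 1.5-fold. Ctgf (Ccn2), the member best known from fibrosis and from Yap signalling, overlapped between the genotypes, at 32.9 and 70.6 CPM in WT and 39.2, 30.5 and 43.2 CPM in WT/flox (-0.46, SE 0.30, edgeR adjusted p = 0.721). It was picked with its values in view.

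Growth factors, neuropeptides and receptors made a further group of rises. Penk, which encodes the precursor of the opioid enkephalins (chr4:4133531-4138819), was at 3.53 and 7.37 CPM in WT and at 56.8, 49.7 and 44.6 CPM in WT/flox (3.21, SE 0.30, edgeR adjusted p = 0.00638). The growth factor Igf1, which increases muscle mass, was at 9.22 and 11.0 CPM in WT and at 19.45, 22.1 and 25.5 CPM in WT/flox (1.14, SE 0.18, edgeR adjusted p = 0.0388). Both genes thus separated the genotypes, Penk widely and Igf1 by less than 3-fold. The BDNF receptor Ntrk2 rose by 1.88 (SE 0.22), the heparin-binding factor Ptn by 1.76 (SE 0.28), the leptin receptor Lepr by 1.36 (SE 0.20) and the natriuretic peptide clearance receptor Npr3 by 1.31 (SE 0.17) on the log2 scale. Igf1 was the 1 gene that edgeR called among 23 tested genes of the IGF axis, where DESeq2 called 3 higher, and the median of 0.14 turned to -0.01 without 73A7. Igfbp3, a carrier of IGF in the extracellular fluid, did not pass at 0.85 (SE 0.15, edgeR adjusted p = 0.0651), and was picked with its values in view.

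Matrix genes moved in both directions. Lox, which cross-links collagen and elastin, was at 11.97 and 11.7 CPM in WT and at 30.6, 32.9 and 37.7 CPM in WT/flox (1.51, SE 0.16, edgeR adjusted p = 0.00875). Spon1, a secreted matrix protein of the spondin family, was at 5.81 and 7.69 CPM in WT and at 26.6, 26.1 and 28.0 CPM in WT/flox (1.996, SE 0.17). The metalloprotease Adamts8 was at 11.4 and 7.496 CPM in WT and at 50.6, 32.1 and 37.8 CPM in WT/flox (2.09, SE 0.26). For these 3 genes every WT/flox animal was more than 2-fold above the higher WT animal. Efemp1 (1.54, SE 0.18), Itih5 (1.31, SE 0.14), Svep1 (1.26, SE 0.19), Ogn (1.20, SE 0.18), Thbs2 (1.11, SE 0.15) and the integrin Itgb5 (0.93, SE 0.14) rose as well.

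Falls in the matrix group were those of a minor fibrillar collagen, a basement membrane collagen and a protease. Col4a1, a chain of the type IV collagen of basement membranes (chr8:11198423-11312826), was at 162 and 164 CPM in WT and at 93.2, 89.9 and 98.5 CPM in WT/flox (-0.79, SE 0.13, edgeR adjusted p = 0.0440). Its partner chain Col4a2, the neighbouring gene in the opposite orientation, was at 117 and 118 CPM in WT and at 81.0, 75.3 and 74.3 CPM in WT/flox, without overlap, and did not pass (-0.61, SE 0.13, edgeR adjusted p = 0.111). Both chains were therefore lower by value in every WT/flox animal. Col5a3 fell by 1.21 (SE 0.19) and Plau, the urokinase that activates plasminogen, by 1.34 (SE 0.20) on the log2 scale. Among 33 tested collagens edgeR called 0 higher and 2 lower and DESeq2 1 higher and 4 lower (median 0.01, and -0.26 without 73A5). At an unadjusted p under 0.05, 4 were higher and 8 lower (9.69% over all genes in either direction). Without 73A7 edgeR called 4 higher and 2 lower, and with total-count scaling neither fall was called. The main fibrillar collagens Col1a1 (0.71, SE 0.27), Col1a2 (0.70, SE 0.27) and Col3a1 (0.89, SE 0.21) did not overlap and did not pass (edgeR adjusted p = 0.427, 0.441 and 0.141). Col4a2 and these 3 were picked with their values in view.

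Markers of the progenitors themselves gave 1 call. Of 28 tested identity genes edgeR called 1 higher and 0 lower, with a median of 0.25 (0.07 without 73A5, and 0.49 with 4 called higher without 73A7). DESeq2 called 5 higher and 0 lower, and 7 were higher and 2 lower at an unadjusted p under 0.05 (9.69% over all genes in either direction). On the higher side 8 of 28 did not overlap and on the lower side 3 (12.4% and 12.9% over all genes), and 19 of 28 had a log2 fold change above 0. The called gene was Cxcl14, a chemokine of fibroblasts, at 36.0 and 67.7 CPM in WT and at 152, 152 and 149 CPM in WT/flox (1.54, SE 0.26, edgeR adjusted p = 0.0487). The list took 0.151 and 0.223% of counts in WT and 0.266, 0.226 and 0.287% in WT/flox. Pdgfra, the receptor that defines these cells, overlapped at 13.2 and 19.3 CPM against 19.8, 16.4 and 21.3 CPM (0.24, SE 0.20), and so did Ly6a, which encodes Sca1 (0.09, SE 0.24). Dcn, which encodes the matrix proteoglycan decorin, was at 260.2 and 370.3 CPM in WT and at 597, 519.6 and 523 CPM in WT/flox (0.79, SE 0.19, edgeR adjusted p = 0.152). Pdgfra, Ly6a and Dcn were picked with their values in view. Whether the number of progenitors has a part in the rises of secreted factors was not tested.

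Complement genes leaned the same way. Of 23 tested chemokine and complement genes 2 were higher, among them Cxcl14, and 0 lower (4 higher by DESeq2), with a median of 0.42 that turned to -0.08 without 73A5 and became 1.28 without 73A7. The lectin pathway protease gene Masp1 rose by 1.90 (SE 0.31) on the log2 scale. Immune markers moved between the WT animals rather than with genotype. The immune list took 0.00439% of counts in 73A5 and 0.0122% in 73A7, against 0.00846 to 0.0110% in WT/flox, with 0 of 14 tested members called by edgeR, 0 by DESeq2 and 1 lower at an unadjusted p under 0.05. Lyz2, the most abundant member, was at 12.6 CPM in 73A5 and 33.0 CPM in 73A7, and at 32.0, 22.9 and 24.5 CPM in WT/flox. C1qa was at 4.61 CPM in 73A5 and 20.5 CPM in 73A7, and at 21.5, 15.2 and 13.5 CPM in WT/flox. Cd68, a macrophage gene, was at 1.98 CPM in 73A5 and 16.7 CPM in 73A7, and at 2.74, 1.33 and 1.24 CPM in WT/flox. It was picked with its values in view and had the lowest log2 fold change of the list (-2.39, list median 0.12). Of the 14 tested members 9 were above 0. The part of the difference between the WT animals in the results was not tested.

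Other cell types were measured for the same reason. Of 20 endothelial genes 0 were called by edgeR and 0 by DESeq2, 4 were lower at an unadjusted p under 0.05, and 17 of the 20 had a log2 fold change below 0 (median -0.24; the list took 0.109 to 0.121% of counts in WT and 0.0967 to 0.118% in WT/flox). In the mural (13 tested), satellite cell (11), glial (14), tenocyte (9) and adipocyte (8) lists edgeR called 0 genes. DESeq2 called 1 lower, 1 lower, 1 higher, 1 higher and 0. In the mural list 11 of 13 were below 0 (median -0.305). Of these genes 5 were lower at an unadjusted p under 0.05 (9.69% over all genes in either direction). On the lower side 5 mural and 6 glial genes did not overlap, and on the higher side 0 and 1 (12.9% and 12.4% over all genes). The adipocyte median of -0.308 was 0.95 without 73A7 and -0.974 without 73A5. The most abundant keratinocyte genes were present in all 5 libraries. Krt10 was at 4.07 and 3.97 CPM in WT and at 4.16, 5.28 and 8.23 CPM in WT/flox. Perp was at 2.75 and 2.88 CPM in WT and at 1.58, 2.29 and 2.68 CPM in WT/flox. Krt5 and Krt14, picked with their values in view, were found mainly in 2 libraries. Krt5 was at 2.24 CPM in 71B4 and 3.35 CPM in 71B5, and at 0.0599, 0 and 0.211 CPM in 73A5, 73A7 and 71B3. Krt14 followed, at 1.97 CPM in 71B4 and 3.78 CPM in 71B5 and at no more than 0.0641 CPM in the other 3. The whole keratinocyte list took 0.00144 and 0.00264% of counts in 71B4 and 71B5 and 0.000746 to 0.000785% in the other libraries. Of 6 tested keratinocyte genes edgeR called 0, and 3 higher without 71B3, DESeq2 called 1 higher, and 3 were higher at an unadjusted p under 0.05. The part of these genes in the results was not tested.

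The largest falls were in genes of the Z-disc, the sarcomere and the response of fibres to stretch and load. Of 29 tested genes of the stretch and stress list 9 were lower and 1 higher (0.213% and 0.514% over all genes), and 14 and 1 by DESeq2. The median was -1.21 (0.003 over all genes), and 22 of 29 did not overlap on the lower side (12.9% over all genes). This list was chosen with earlier results of these data known, so these shares describe its members and are no test. Mybph, a myosin-binding protein of fast fibres (chr1:134193448-134201232), was at 34.2 and 124 CPM in WT and at 1.84, 1.55 and 0.957 CPM in WT/flox (-5.78, SE 0.57, edgeR adjusted p = 0.00863). Csrp3, the muscle LIM protein that shuttles between Z-disc and nucleus (chr7:48830398-48848033), was at 498 and 1558.5 CPM in WT and at 67.1, 42.1 and 46.7 CPM in WT/flox (-4.31, SE 0.46). Ankrd2, a stretch-induced ankyrin repeat protein (chr19:42036000-42045110), was at 551 and 1492 CPM in WT and at 93.3, 65.3 and 65.0 CPM in WT/flox (-3.78, SE 0.40). The 3 WT/flox animals were alike for each of these genes, and 73A7 was about 3-fold above 73A5, which itself was far above all WT/flox animals.

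Other falls of this group did not rest on the gap between the WT animals. Actc1, the cardiac actin that adult skeletal muscle keeps at a low level (chr2:114047282-114053548), was at 109 and 106 CPM in WT and at 16.1, 23.7 and 14.2 CPM in WT/flox (-2.58, SE 0.22, edgeR adjusted p = 0.00546). Fhl1, a LIM protein of the sarcomere (chrX:56731787-56793346), was at 4599 and 5347 CPM in WT and at 1747.5, 1241 and 1562 CPM in WT/flox (-1.71, SE 0.19). Flnc, the muscle filamin of the Z-disc, was at 1511 and 2129 CPM in WT and at 608, 659.8 and 694 CPM in WT/flox (-1.48, SE 0.18). In each case the lower WT animal was more than 2-fold above the highest WT/flox animal. Lmcd1, a LIM protein that acts on calcineurin signalling, went from 496 and 705 to 239, 223 and 210 CPM (-1.42, SE 0.18).

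The M-band gene Myom3 (-2.21, SE 0.21) and the small heat shock gene Hspb7 (-1.79, SE 0.23) completed the 9 called lower. Igfn1, which encodes an immunoglobulin-like and fibronectin domain protein of the Z-disc (chr1:135953578-136006342), was the exception of this list. It was at 45.7 and 20.3 CPM in WT and at 333, 240.2 and 366 CPM in WT/flox (3.24, SE 0.37, edgeR adjusted p = 0.0133). Ankrd23, a relative of Ankrd2, was at 4591 and 2384 CPM in WT and at 5801, 5541 and 6491 CPM in WT/flox (0.77, SE 0.28, edgeR adjusted p = 0.394). Other members with a wide WT gap did not pass, among them Mustn1 (222 CPM in 73A5 and 1094 CPM in 73A7; -2.65, SE 0.57), Ankrd1 (-1.69, SE 0.51), Cryab (-1.63, SE 0.48) and Hspb1 (-1.62, SE 0.45). The list's median was -0.41 without 73A7 and -1.63 without 73A5. Its number of called lower genes was 10 without 73A7, 16 without 73A5, 3 without 71B4 and 0 without 71B5. Ankrd23 and these 4 were picked with their values in view.

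The 2 WT animals were also used 1 at a time. Relative to 73A5 alone the 27 lower genes had a median log2 ratio of -1.24, and relative to 73A7 alone of -1.66, and 21 of the 27 were higher in 73A7 than in 73A5. For the 65 higher genes the medians were 1.503 and 1.46, and 28 of the 65 were higher in 73A7. Single rises moved in both directions: Igfn1 was 2.76 above 73A5 and 3.91 above 73A7 on this log2 scale, and Penk 3.66 and 2.69.

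**Figure D4:**
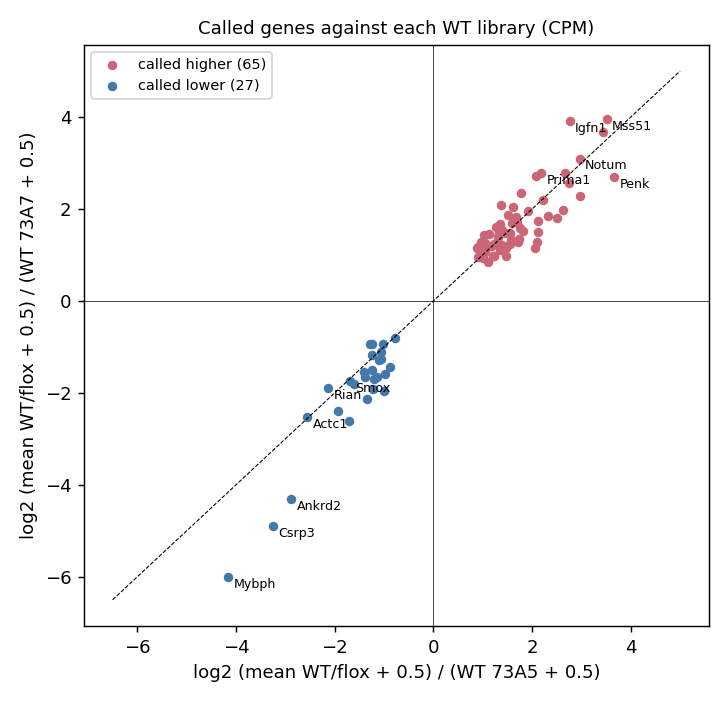
Log2 ratio of the WT/flox mean to WT animal 73A5 (horizontal axis) and to WT animal 73A7 (vertical axis) for the 92 called genes, from CPM with 0.5 added, with red for genes called higher and blue for genes called lower. Points on the dashed line have the same ratio to both animals: the red points scatter around it, while Mybph, Csrp3 and Ankrd2 lie under it, farther from 73A7 than from 73A5.

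Promoters of called genes were read for letters that muscle and Wnt transcription factors are known to bind, since 9 genes of 1 response fell together. RefSeq promoter windows on GRCm38.p6 were at hand for 9651 tested genes, 43 called higher and 24 called lower, and a gene could have several. The CArG box, bound by serum response factor, was in the windows of 3 of 24 genes called lower (12.5%), 0 of 43 called higher and 1.47% of all tested genes. All 3 belong to the stretch and stress list, and this box was chosen for the search after the called genes were seen. The 250 bases before their start sites are shown 5′ to 3′ on the strand of the gene, with the CArG box in capitals and, in Lmcd1, also an E-box, spelled CAGCTG. For Actc1 the window is chr2:114052876-114053125 on the minus strand with the box at position -47, for Lmcd1 it is chr6:112273508-112273757 on the plus strand with the box at -215 and the E-box at -168, and for Fhl1 it is chrX:56779433-56779682 on the plus strand with the box at -102. RefSeq starts can differ from those of GENCODE.
Actc1: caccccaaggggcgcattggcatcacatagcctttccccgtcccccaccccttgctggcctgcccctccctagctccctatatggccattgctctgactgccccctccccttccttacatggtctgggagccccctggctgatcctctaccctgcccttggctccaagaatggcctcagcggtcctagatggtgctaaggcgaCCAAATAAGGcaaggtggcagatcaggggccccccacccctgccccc
Lmcd1: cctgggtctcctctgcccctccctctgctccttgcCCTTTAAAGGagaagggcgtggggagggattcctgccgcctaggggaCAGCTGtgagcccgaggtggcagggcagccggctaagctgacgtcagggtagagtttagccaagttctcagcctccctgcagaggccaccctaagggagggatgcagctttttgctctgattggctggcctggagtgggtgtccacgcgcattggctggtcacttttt
Fhl1: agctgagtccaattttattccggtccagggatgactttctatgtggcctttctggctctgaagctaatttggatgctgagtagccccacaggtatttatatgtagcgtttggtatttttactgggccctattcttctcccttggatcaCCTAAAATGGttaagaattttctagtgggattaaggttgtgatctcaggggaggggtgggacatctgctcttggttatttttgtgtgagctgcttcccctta

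Other motifs were counted in the same windows. The myogenic E-box CAGCTG, which reads the same on both strands, was in 5 of 24 promoters of genes called lower (20.8%), 8 of 43 of genes called higher (18.6%) and 14.6% of all. The MEF2 box, also chosen after the called genes were seen, was in 2 of 24 (8.33%), 3 of 43 (6.98%) and 2.36%. The AP-1 site TGACTCA on either strand was in 2 of 24 (8.33%), 0 of 43 and 3.99%. The core TCF/LEF site CTTTGAT, on either strand, was in 0 of 24, 0 of 43 and 2.73% of all promoters, which says only that these letters were not in windows of this length. Mybph, with the largest fall, and Nkd1, a feedback inhibitor that rose, are shown as examples with E-boxes in capitals. The window of Mybph is chr1:134193198-134193447 on the plus strand with 1 E-box at -79, and that of Nkd1 is chr8:88527383-88527632 on the plus strand with E-boxes at -64 and -13. A match is a description of the sequence and was not tested for binding.
Mybph: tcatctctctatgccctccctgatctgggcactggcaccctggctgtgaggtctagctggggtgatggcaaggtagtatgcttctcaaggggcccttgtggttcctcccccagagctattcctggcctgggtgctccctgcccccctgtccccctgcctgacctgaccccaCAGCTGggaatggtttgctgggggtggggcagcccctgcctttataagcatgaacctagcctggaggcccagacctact
Nkd1: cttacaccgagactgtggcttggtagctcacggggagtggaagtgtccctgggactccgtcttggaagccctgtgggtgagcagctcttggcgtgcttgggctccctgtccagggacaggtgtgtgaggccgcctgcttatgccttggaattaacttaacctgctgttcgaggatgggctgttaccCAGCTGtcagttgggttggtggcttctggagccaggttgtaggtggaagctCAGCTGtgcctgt

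Fibre type was measured through the myosin heavy chains, whose genes mark the fast IIb (Myh4), IIx (Myh1) and IIa (Myh2) and the slow (Myh7) fibres. Counts were divided by the length of each gene's exons and given as the share of all myosin heavy chain counts per kb. Myh4 made up 73.5 and 68.7% in WT and 64.0, 59.5 and 60.6% in WT/flox, a mean of 71.1 ± 3.39 (SD, n = 2) against 61.4 ± 2.32 (SD, n = 3). Myh1 made up 23.5 and 26.3% in WT and 32.3, 36.9 and 35.5% in WT/flox, a mean of 24.9 ± 1.96 against 34.9 ± 2.39. The difference was 10.02 percentage points for the IIx share and -9.71 for the IIb share, and the genotypes did not overlap for either. The two-sided exact permutation test gave p = 0.2 for both, the smallest value that 2 against 3 animals allow.

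Myh2 overlapped, at 2.92 and 4.92% in WT and 3.65, 3.38 and 3.77% in WT/flox, and Myh7 made up less than 0.1% in every library. As single genes edgeR called none of these, and DESeq2 called Myh4 lower (adjusted p = 0.0222). Myh4 was at 36564 and 35721 CPM in WT and at 24905, 25159 and 18960 CPM in WT/flox (-0.65, SE 0.20, edgeR adjusted p = 0.299). Myh1 overlapped, at 12345 and 14424 CPM in WT and 13263, 16480 and 11723 CPM in WT/flox. By level, then, Myh4 was lower in every WT/flox animal and Myh1 was not shown to differ. Myosin heavy chain genes are near-identical in long stretches, and how the authors' counting divided shared reads is not given in the sources used here, so these shares are uncertain.

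**Figure D5:**
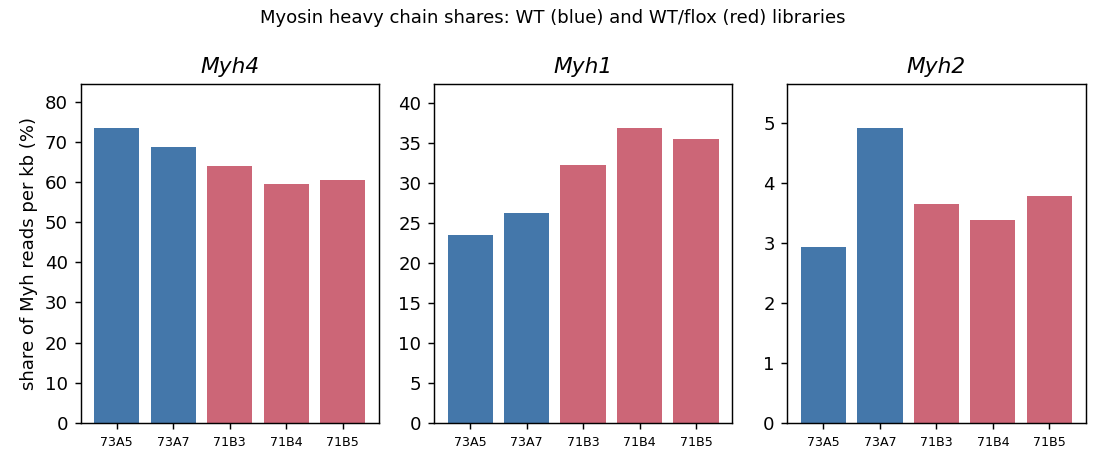
Share of each gene in the myosin heavy chain counts per kb of exon (%), 1 bar per library, WT in blue and WT/flox in red, for Myh4, Myh1 and Myh2 on separate axes that start at 0. Myh4 is at 68.7% or more in WT and at 64.0% or less in WT/flox, Myh1 is at 26.3% or less in WT and at 32.3% or more in WT/flox, and Myh2 overlaps.

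Structural and slow-fibre lists gave few calls. Of 32 sarcomere genes 0 were called by edgeR and 2 lower by DESeq2. At an unadjusted p under 0.05, 6 were lower (9.69% over all genes in either direction). In this list 25 had a log2 fold change below 0 (median -0.15), and 18 did with total-count scaling (median -0.04). On the lower side 13 of 32 did not overlap and on the higher side 1 (12.9% and 12.4% over all genes). Of 18 fast-fibre genes 0 were called by edgeR and 1 lower by DESeq2, Myh4, with 1 lower at an unadjusted p under 0.05 (median -0.15). In the slow-fibre list 2 of 16 were lower (0.213% over all genes), Fhl1 and Casq2. Casq2, the calsequestrin of slow and cardiac muscle, was at 80.4 and 84.0 CPM in WT and 34.6, 42.8 and 37.7 CPM in WT/flox (-1.10, SE 0.14, edgeR adjusted p = 0.0190). The slow-fibre median of -0.37 turned to 0.12 without 73A7. Among 34 genes of calcium handling 0 were called by edgeR and 1 lower by DESeq2, with a median of -0.10. At an unadjusted p under 0.05, 1 was higher and 4 lower. On the lower side 5 fast-fibre and 10 calcium handling genes did not overlap, and on the higher side 1 and 2 (12.9% and 12.4% over all genes).

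At the neuromuscular junction 1 of 30 tested genes was called (0.727% over all genes). Prima1, the membrane anchor of acetylcholinesterase in nerve and brain (chr12:103196908-103242150), was at 4.01 and 2.50 CPM in WT and at 18.1, 19.5 and 22.4 CPM in WT/flox (2.61, SE 0.24, edgeR adjusted p = 0.00598). The enzyme gene Ache overlapped, at 57.3 and 52.9 CPM in WT and 69.8, 66.9 and 54.1 CPM in WT/flox (0.21, SE 0.16). Colq, which anchors the enzyme in the synaptic basal lamina, was at 9.04 and 7.37 CPM in WT and at 6.43, 7.47 and 4.83 CPM in WT/flox (-0.40, SE 0.23). Chrng, the fetal receptor subunit that rises after denervation, was too low to be tested, with at most 0.107 CPM. Musk overlapped (0.16, SE 0.42), and Chrna1 did not overlap and did not pass (0.48, SE 0.15, edgeR adjusted p = 0.317). The median of the list was 0.07, and it turned to -0.21 without 73A7 and to -0.09 without 71B5. DESeq2 called 1 gene of the list higher and 1 lower. All of these but Prima1 were picked with their values in view.

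Myogenic and atrophy genes were described because the series concerns muscle mass. Myod1, the myogenic regulator of satellite cells and fast fibres (chr7:46376474-46379099), was at 32.9 and 30.8 CPM in WT and at 70.3, 63.0 and 69.7 CPM in WT/flox (1.09, SE 0.14, edgeR adjusted p = 0.0177). It was the 1 called gene of 25 (0.727% over all genes). Myog was at 7.84 and 11.1 CPM in WT and at 4.59, 5.82 and 5.22 CPM in WT/flox (-0.86, SE 0.22, edgeR adjusted p = 0.181). Foxo1, the factor that drives atrophy genes during fasting and disuse, was at 27.7 and 26.01 CPM in WT and at 52.6, 58.2 and 53.5 CPM in WT/flox (1.03, SE 0.14, edgeR adjusted p = 0.0214). The mean thus went from 31.9 to 67.7 CPM for Myod1 and from 26.9 to 54.7 CPM for Foxo1. Every WT/flox animal was above both WT animals for both genes.

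The ubiquitin ligase genes that FoxO factors switch on overlapped between genotypes. Fbxo32, which encodes atrogin-1, was at 279.9 and 223 CPM in WT and at 258, 272 and 348 CPM in WT/flox (0.22, SE 0.19, edgeR adjusted p = 0.808). Trim63, which encodes MuRF1, was at 253 and 239.9 CPM in WT and at 221, 245 and 229 CPM in WT/flox (-0.09, SE 0.14, edgeR adjusted p = 0.912). In the list of 34 atrophy and FoxO genes, Foxo1 was higher and Smox lower (0.514% and 0.213% over all genes). DESeq2 called 1 higher and 3 lower, and the median was -0.11. All 30 proteasome genes had a log2 fold change below 0 (median -0.17), and 0 were called by edgeR, by DESeq2 or at an unadjusted p under 0.05. With total-count scaling 25 of them stayed below 0 (median -0.06), and without 73A7 19 did. Of 29 autophagy and lysosome genes 0 were called by edgeR and 0 by DESeq2, with 1 lower at an unadjusted p under 0.05 (median 0.06). Myog, Fbxo32 and Trim63 were picked with their values in view.

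Metabolic lists had small, uncalled shifts around a few single-gene calls. Smox, the spermine oxidase of muscle that is known to fall in several forms of atrophy (chr2:131491496-131525922), was at 305 and 318 CPM in WT and at 92.6, 106 and 83.6 CPM in WT/flox (-1.73, SE 0.15, edgeR adjusted p = 0.00546). The WT animals agreed within 5% and each was about 3-fold above every WT/flox animal. It was the 1 called gene of 12 tested in the polyamine list (0.727% over all genes), where DESeq2 called 2 lower. Slc25a25, a mitochondrial ATP-Mg carrier, was at 171 and 188 CPM in WT and at 66.1, 50.4 and 77.1 CPM in WT/flox (-1.48, SE 0.19). Srebf1, the regulator of lipid synthesis, was at 40.7 and 35.4 CPM in WT and at 79.8, 86.7 and 88.8 CPM in WT/flox (1.16, SE 0.14, edgeR adjusted p = 0.0161).

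Of 36 genes of fatty acid oxidation 0 were called by edgeR and 3 lower by DESeq2, and 11 were lower at an unadjusted p under 0.05 (9.69% over all genes in either direction). In this list 31 had a log2 fold change below 0 and 17 did not overlap on the lower side (12.9% over all genes), with a median of -0.30 (-0.18 with total-count scaling). Among them Acadvl, the very long chain dehydrogenase, was at 755 and 751 CPM in WT and at 599, 569.9 and 468 CPM in WT/flox (-0.47, SE 0.16, edgeR adjusted p = 0.357). Without 73A7 5 members of this list were called lower. The 56 oxidative phosphorylation genes had a median of -0.17, 35 genes of glycolysis and glycogen -0.19 and 58 ribosomal protein genes 0.07, with 0 called by edgeR in each. In the glycolysis and glycogen list DESeq2 called 2 lower and 5 were lower at an unadjusted p under 0.05, and both counts were 0 in the other 2 lists. These medians moved with single animals: without 73A7 the oxidative phosphorylation median was -0.02, and the ribosomal median was 0.38 without 73A7 and -0.21 without 73A5. Acadvl was picked with its values in view.

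Several strong differences belonged to none of these lists. Tmem100, a membrane protein of BMP signalling and sensory neurons, was at 18.02 and 17.4 CPM in WT and at 78.3, 63.6 and 65.8 CPM in WT/flox (1.97, SE 0.16, edgeR adjusted p = 0.00546). Ildr1, a protein of tricellular junctions, was at 0.539 and 0.384 CPM in WT and at 9.22, 9.44 and 13.8 CPM in WT/flox (4.53, SE 0.34). Tmem132c was at 0.180 and 0.128 CPM in WT and at 3.79, 4.06 and 3.68 CPM in WT/flox (4.58, SE 0.36). The WT/flox animals lay within 1.5-fold of each other in all 3 genes. The unnamed transcript 5930438M14Rik had 1 count in WT and 167 counts in WT/flox, which is a 92.1-fold ratio with an exact 95% counting interval from 16.3 to 3660. Rian, a long non-coding RNA of the imprinted Dlk1-Dio3 region (chr12:109603940-109661716), was at 27.4 and 23.2 CPM in WT and at 5.06, 5.76 and 6.70 CPM in WT/flox (-2.11, SE 0.17, edgeR adjusted p = 0.00546). Its neighbour Meg3 was at 6.70 and 16.02 CPM in WT and at 5.22, 4.48 and 4.88 CPM in WT/flox (-1.22, SE 0.33, edgeR adjusted p = 0.237). The 73A5 value of Meg3 was close to WT/flox and that of Rian was not. Rian was the 1 called gene of 20 tested imprinted genes (0.727% over all genes), of which DESeq2 called 2 lower. Meg3 and 5930438M14Rik were picked with their values in view.

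Further genes with large differences had roles of their own. Pcdh20, a protocadherin of cell adhesion, was at 0.180 and 0.192 CPM in WT and at 2.53, 1.97 and 3.45 CPM in WT/flox (3.79, SE 0.46, edgeR adjusted p = 0.0155). Mdga1, a cell surface protein of synapses, was at 23.8 and 21.4 CPM in WT and at 82.3, 83.6 and 66.8 CPM in WT/flox (1.78, SE 0.17). Both genes were higher in every WT/flox animal. On the lower side, the pseudogene Hmga2-ps1, whose reads may be shared with Hmga2, was at 10.4 and 19.7 CPM in WT and at 1.95, 3.90 and 2.63 CPM in WT/flox (-2.41, SE 0.35). The small GTPase gene Rab15 was at 4.55 and 5.64 CPM in WT and at 1.26, 1.71 and 1.34 CPM in WT/flox (-1.82, SE 0.24). The transcription factor gene Irf5, an interferon regulatory factor, was at 60.7 and 72.5 CPM in WT and at 29.1, 24.9 and 22.2 CPM in WT/flox (-1.39, SE 0.16, edgeR adjusted p = 0.0141). All 3 were lower in every WT/flox animal. Vash2, a tubulin carboxypeptidase and angiogenic factor, fell by 2.07 (SE 0.32) and Rgcc, a cell cycle regulator, by 1.58 (SE 0.26) on the log2 scale.

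Calls differed in how often they recurred. A core of 20 was called in 11 of 12 alternative analyses, all but the one without 71B5. It holds Ildr1, Mss51, Igfn1, Penk, Wisp2, Prima1, Dkk2, Dkk3, Apcdd1, Adamts8, Spon1, Tmem100, Nov, Mdga1 and Ddah1 on the higher side and Ankrd2, Actc1, Myom3, Rian and Smox on the lower side. The alternative with a filter of 5 CPM in 2 libraries held 82 of the 92, so genes under it could not enter this core. Among those, Notum, Tmem132c, Pcdh20 and 5930438M14Rik were called in 10 of 12. Size factors in place of TMM and a fit without robust dispersions each called all 92 again. The number of alternatives thus mixes a gene's level with its stability. All 92 kept their sign in every alternative in which they were tested. This says little of stability, since none of the 92 overlapped between the genotypes and leaving out 1 animal could hardly reverse a sign. For 35 of the 87 called genes with 1 position GENCODE places a gene on the opposite strand, among them Actc1 (A530058N18Rik), Mybph (Adora1), Notum (Notumos), Penk (A830012C17Rik), Igf1 (Igf1os), Inhba (B230303A05Rik), Rab15 (Fntb), Ogn (Cenpp), Srebf1 (Rai1) and Dlec1 (Acaa1b). Since the strand setting of the counting is not given in the sources used here, reads of such a pair cannot be told apart.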

How the data were processed

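Whole tibialis anterior RNA of 5 mice was read as gene expression. Per the labels' protocols, total RNA went into a stranded poly(A) library kit and paired-end reads were taken on an Illumina NextSeq 500. The authors deposited whole-number counts per gene symbol; per the submitters' processing notes the tools include bcl2fastq 2.20, Bowtie and STAR with the build mm10, and how reads were assigned to genes, and with which strand setting, is not given in the sources used here. In the sample table that came with the counts these libraries are called FAPs, against the labels, which were followed.

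Counts were fitted with edgeR 4.0.16 in R 4.3.3 (filterByExpr, TMM scaling, robust dispersions, quasi-likelihood F test, two-sided, Benjamini-Hochberg adjustment, threshold 0.05), without covariates, on these 5 libraries alone. SE values are those implied by the F statistic. The number of animals, more than depth, limits precision: 3 counts correspond to 0.154 to 0.178 CPM, and counting intervals are exact at 95% and cover counting error only. Each library has its own number in the labels, taken here as an animal's; if it were not, p-values would measure technical spread only. All pairs within a genotype differed by more than counting noise (chi-square over its degrees of freedom, 9.13 to 48.2).

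The members, the 56 gene lists and the tests were chosen with earlier results of these data known. The naming rule covered Ctnnb1 and Hic1, up to 4 called members of each list, and called genes within their group. It also covered the 15 largest rises and 15 largest falls (called, mean log2 CPM 1 or more, no overlap, predicted gene models left out). The 2 most abundant members of cell type lists and of lists without calls were covered too, but many of them are not shown. Apart from the myosin heavy chains, genes outside the rule whose values are given were picked with those values in view. Positions are from GENCODE M21 (16272 of 16924 symbols with a count matched). Alternatives were DESeq2 1.42.0, limma 3.58.1 voom, other scalings and filters, and leaving out each animal. Not every called gene is named, and 1 item is not reported here.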

Additional observations from a re-analysis of the deposited data

How the results depend on the processing

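Size factors in place of TMM and a fit without robust dispersions each called 92 genes, and limma voom called 82. DESeq2 called 265 (158 higher, 107 lower, 59.6% higher against 70.7% in edgeR), total-count scaling 54 (39 and 15), no filter 139 (43 lower) and a filter of at least 5 CPM in 2 libraries 66. Leaving out 1 animal gave 0 to 239 genes called, 0 to 146 higher and 0 to 130 lower; without 73A5 45.6% of the calls were higher. Among stretch and stress genes, 14 were called lower by DESeq2 and 0 to 16 when 1 animal was left out, against 9; of the Wnt targets 3 were called higher with the filter of 5 CPM and 0 to 5 when 1 animal was left out, against 5. The lowest values came without 71B5, and the cause was not tested. All called genes kept their direction in each alternative that held them: of 1186 such values 905 passed and 281 did not. The kept direction was all but fixed in advance, since no called gene overlapped between the genotypes. With the myosin shares, the difference between genotypes ran from 8.63 to 11.4 points for Myh1 and from -12.1 to -7.31 for Myh4 when 1 animal was left out. The labels number no replicates, but the deposited sample table numbers 2 and 3 in both genotypes; same-numbered animals did not deviate together (correlations -0.0186 and -0.475). A replicate block on those numbers, chosen after seeing the data, called 178 genes, 127 higher and 51 lower, with 15 stretch and stress genes lower. With 2 WT animals, a difference in spread between genotypes cannot be judged.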

Other observations

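Of the 56 gene lists, 35 had 0 genes called by edgeR, and limma voom also called 0 in these. Among those not described above, immediate early genes (26 tested) had 6 higher and 7 lower at an unadjusted p under 0.05 (9.69% over all genes in either direction). DESeq2 called 2 of them higher, and their median log2 fold change was -0.20. Circadian clock genes (19) had 2 higher and 2 lower at that p and 0 called by DESeq2 (median 0.06). The list of the dystrophin complex and costamere (20) had 5 lower at that p and 1 called lower by DESeq2. Cell cycle genes (17) had 0 by edgeR, by DESeq2 and at that p. Interferon and MHC genes (27, median -0.18), FGF genes (22, median -0.06) and Hedgehog and Notch genes (20, median 0.005) had 0 called by DESeq2 and 2, 4 and 1 at that p.

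Nes, which encodes the intermediate filament nestin, was at 66.0 and 85.3 CPM in WT and at 41.6, 41.0 and 35.4 CPM in WT/flox, without overlap (-0.94, SE 0.16, edgeR adjusted p = 0.0564). Pfkfb3, a regulator of glycolysis, was at 213 and 104 CPM in WT and at 35.6, 31.0 and 55.9 CPM in WT/flox, also without overlap (-1.96, SE 0.34, edgeR adjusted p = 0.05745). Both were picked with their values in view.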
